A study of Mus musculus with 4 samples.

Results

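The comparison described here set 1 array of Lgr5+ cells against 1 array of Lgr5- cells, both sorted from intestinal tumours of mice and both positive for a tuft cell marker. A gene was included when its probe was well above background on at least 1 of these arrays, a mark set by the scanner software. By this rule 17625 of the 22911 genes with a named probe were included. The value of a gene is its level on the Lgr5+ array minus its level on the Lgr5- array. A level is the log2 processed signal minus the 75th percentile of that array, so that a difference of 1 is 2-fold.

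Per the labels, all 4 sorted populations of the series came from tumour-bearing mice of 1 genotype, Lgr5CreERT2/+; Ctnnb1lox(ex3)/ox(ex3), taken 14 days after tamoxifen, with no untreated or Cre-negative group. Ctnnb1, which encodes beta-catenin, had in both its copies loxP sites around exon 3, and 1 copy of Lgr5 carried the tamoxifen-dependent Cre recombinase, so that recombination was driven from the Lgr5 gene. Cells positive for the epithelial surface protein EpCAM were divided by Lgr5 and by IL17RB, the tuft marker. The populations compared are labelled Lgr5+tuft marker+ and Lgr5-tuft marker+, and the remaining pair was sorted in the same way from cells without the tuft marker. For each population 13 ng of total RNA went onto 1 one-colour array. How Lgr5 was detected for the sort, how many animals were pooled, their age and the part of the intestine are not given in the sources used here. With 1 array a group there was no replicate check, and no difference below has a test.

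Lgr5 is a receptor for R-spondins that amplifies Wnt signalling and marks the dividing stem cells at the base of intestinal crypts. Loss of exon 3 removes the sites through which beta-catenin is marked for destruction, so that Wnt target genes stay on and adenomas form. Crypt base stem cells lie between Paneth cells, which secrete alpha-defensins and lysozyme. Tuft cells, a scarce chemosensory type of the same epithelium, release interleukin 25, for which IL17RB is a receptor subunit.

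The gate genes matched the labels of the sort. Lgr5 was at -0.78 on the Lgr5+ array and was not well above background on the Lgr5- array, where its 1 probe read -5.83, which made it at least 7.34-fold higher in Lgr5+ cells. Il17rb, the tuft marker of the sort, was at -0.38 on the Lgr5+ array and 0.12 on the Lgr5- array, a difference of -0.49 with a scanner error of 0.21. At the same probe the tuft marker- arrays read -3.13 for Lgr5+ cells and -4.70 for Lgr5- cells, the latter not well above background. A second Il17rb probe differed by -0.06 between the tuft marker+ arrays. Epcam was high on both arrays, at 5.02 and 4.52. Of 62 tuft cell genes with a named probe, 57 were well above background on the Lgr5+ array and 60 on the Lgr5- array. On the Lgr5+ and Lgr5- tuft marker- arrays 54 and 47 were, so detection alone separates the sorts only in part. As examples chosen after their values were seen, Dclk1, a kinase, was at 4.22 and 3.81, Trpm5, a cation channel of taste signalling, at 4.35 and 3.80, and Pou2f3, the transcription factor on which tuft cells depend, at 0.56 and 0.53. Each of these examples read higher on the Lgr5+ array, but of the 60 tuft cell genes with a difference 39 were lower there. Ctnnb1 was at 5.07 on the Lgr5+ array and 4.38 on the Lgr5- array, and these probes say nothing on whether exon 3 was lost.

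Each array held 62976 spots, all 4 arrays lay on 1 slide read in 1 scan, and no spot was saturated. The Lgr5+ array had 60.1% of its probes well above background and the Lgr5- array 68.9%, against 64.3% and 68.8% on the tuft marker- arrays. The scanner's error of a difference had a median of 0.21 and ran from 0.20 to 0.51 over genes measured on both arrays. Among 300 probes spotted 10 times, the difference between the arrays had a median standard deviation of 0.06 between copies. Different probes of the same gene spread more, with a median standard deviation of 0.39 over 4357 genes, and 39 genes had probes that were at least 2-fold apart from 0 in opposite directions. These values measure the spread within and between probes, not between animals. A gene above background on 1 array only has a limit in place of a difference, taken against the other array at the higher of its own reading there and the lowest level called above background, and such a value is given as "at least".

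A difference could be given for 17386 of the 17625 genes. Of these, 1572 (9.04%) were at least 2-fold higher in Lgr5+ tuft marker+ cells and 1997 (11.5%) were at least 2-fold lower. At 4-fold the counts were 160 and 247, and at 8-fold 12 and 31. The median over all genes was -0.06. Among the 14775 genes above background on both arrays 1341 were higher and 1391 lower, so the surplus of lower genes lay mostly in the 2134 genes seen on the Lgr5- array only, against 477 seen on the Lgr5+ array only. The split depended on scaling. Higher genes made up 44.0% of the differing genes here, 67.0% after scaling by the array median and 28.0% in the authors' scaled values, and the median over all genes became 0.18 and -0.21 with these scalings. With a laxer mark for detection, that a spot was positive and significant, the higher share was 36.1%.

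**Figure D1:**
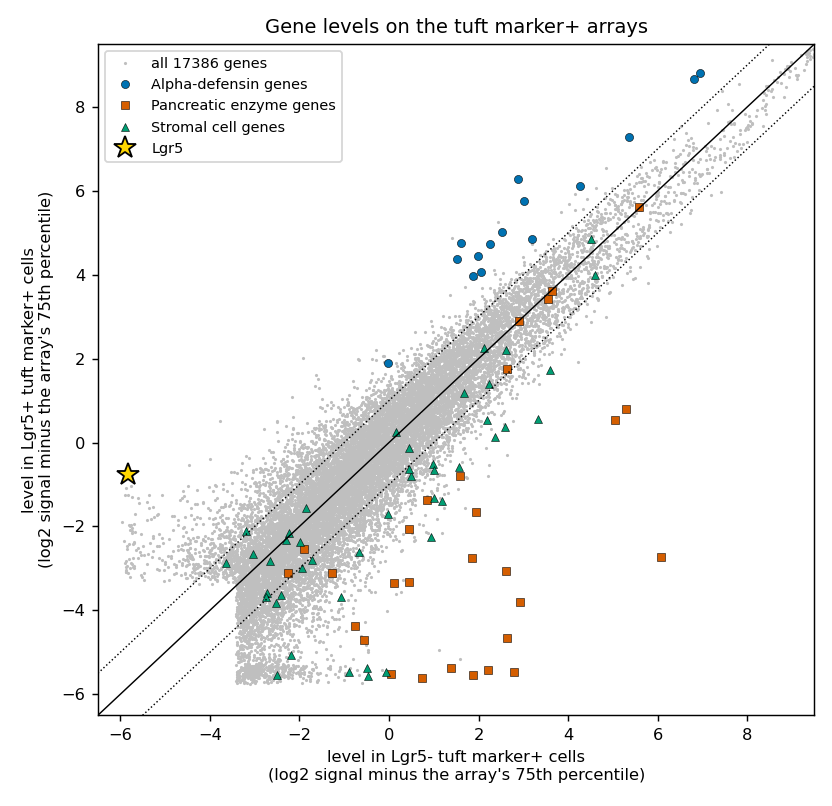
Each dot is a gene, with its level in Lgr5- tuft marker+ cells across and in Lgr5+ tuft marker+ cells up, both as log2 signal minus the array's 75th percentile; the solid line marks equal levels and the dotted lines a 2-fold difference. All 15 alpha-defensin genes lie above the upper dotted line, 22 of 29 pancreatic enzyme genes lie on or below the lower one, and Lgr5 stands at the far left, where signals are not above background.

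Alpha-defensin genes were higher in Lgr5+ tuft marker+ cells as a group. These genes encode the antimicrobial peptides, also called cryptdins, that Paneth cells release into the crypt. The list held 47 names, 15 of them with a named probe, and all 15 were at least 2-fold higher, with a median of 2.09. The smallest difference was 1.65 and the largest 3.40. Many of these genes are near copies of each other that share probe sequence, so that the values of single members are uncertain and the 15 are not independent. The upstream sequences below are of 4 genes. They include Defa2 and Defa21, which had the largest differences, and Defa38, whose upstream sequence holds no Tcf site. Defa26, with a larger difference than Defa36, had no upstream sequence among those used. They are the 250 bases before the start of each gene from RefSeq on GRCm38.p6, with the letters of a core site of Tcf factors, the DNA-binding partners of beta-catenin, in capitals. The site was searched as CTTTGAT on either strand, so that it reads ATCAAAG on the reverse strand. Defa21 lies at chr8:21025295-21025544, Defa2 at chr8:21378267-21378516 and Defa36 at chr8:21427178-21427427, all on the plus strand. Defa38 lies at chr8:21096051-21096300 on the minus strand.
Defa21: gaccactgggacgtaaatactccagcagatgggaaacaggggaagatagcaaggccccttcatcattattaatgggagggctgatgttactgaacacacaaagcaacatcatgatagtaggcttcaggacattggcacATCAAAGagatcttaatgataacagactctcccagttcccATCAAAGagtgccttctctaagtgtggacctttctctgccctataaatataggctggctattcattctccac
Defa2: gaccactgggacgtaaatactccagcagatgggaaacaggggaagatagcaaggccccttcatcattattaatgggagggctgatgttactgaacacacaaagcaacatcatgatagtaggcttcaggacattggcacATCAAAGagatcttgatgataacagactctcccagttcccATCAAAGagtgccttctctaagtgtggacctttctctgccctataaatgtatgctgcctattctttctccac
Defa36: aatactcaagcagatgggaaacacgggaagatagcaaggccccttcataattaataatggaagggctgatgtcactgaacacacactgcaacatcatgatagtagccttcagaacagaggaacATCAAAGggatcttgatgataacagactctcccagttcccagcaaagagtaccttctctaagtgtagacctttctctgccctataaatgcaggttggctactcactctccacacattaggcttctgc
Defa38: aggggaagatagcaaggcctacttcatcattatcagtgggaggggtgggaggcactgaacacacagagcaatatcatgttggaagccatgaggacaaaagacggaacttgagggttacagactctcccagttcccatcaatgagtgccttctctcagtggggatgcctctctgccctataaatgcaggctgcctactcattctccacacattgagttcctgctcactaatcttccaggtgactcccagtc

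In Defa21 and Defa2 the site began 112 and 72 bases before the start, and in Defa36 it began 127 bases before it, each time on the reverse strand. Of 16 alpha-defensin genes with an upstream sequence, 13 held the site and 3 did not (Defa38, Defa42 and Defa43), and 7 of the 16 had a difference on the arrays. Over all 32851 promoters of the same length 1053 held it, or 3.2%. Upstream sequences with the site were 48.0% to 100% identical to each other, with a median of 79.2%, so that they are related copies and not independent matches. A letter match is no measurement of binding.

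Defa21, a marker given for the Lgr5 sort, was at 4.75 on the Lgr5+ array and 1.62 on the Lgr5- array, which is 8.76-fold higher with a log2 scanner error of 0.20. Defa2 was at 6.29 and 2.89, or 10.6-fold higher, and its second probe differed by 2.30. Defa26 was at 4.37 and 1.52 and Defa36 at 5.75 and 3.01. Each of these genes lay above the 75th percentile of both arrays and was higher on the Lgr5+ array. The 3 genes without the Tcf letters upstream, named here after their values were seen, differed as well, Defa38 by 2.49, Defa42 by 2.46 and Defa43 by 2.49. The other genes with both a difference and an upstream sequence held the letters, among them Defa23, with a difference of 1.86. The pseudogene Defa-ps1 was at 5.25 and 2.44.

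Other products of Paneth cells were also more often higher than lower. Of 36 listed genes other than defensins, 33 had a named probe and 30 a difference, of which 15 were at least 2-fold higher and 1 was lower, with a median of 0.99. Mptx2, a pentraxin of Paneth cells, was at 4.86 on the Lgr5+ array and 1.41 on the Lgr5- array, an 11-fold difference. Its relative Mptx1 was at 0.49 and -2.50. Kit, a receptor tyrosine kinase of Paneth-like cells and also of mast cells, was at 0.26 and -2.49. Ang2, a ribonuclease of the angiogenin family, was not on the list and was at 1.35 and -1.64. Reg4, a secreted lectin, was at 0.23 and -2.03. The 1 lower gene was Dll4, a Notch ligand, at -1.85 and -0.74.

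Stem cell genes past 2-fold were more often higher than lower. Of 38 listed crypt base genes, 37 had a named probe and 33 a difference, 11 of them at least 2-fold higher and 3 lower, with a median of 0.73. The 11 include Lgr5 itself, whose direction was set by the sort. Smoc2, a secreted calcium-binding protein of Lgr5 cells, was at -0.81 on the Lgr5+ array and -2.47 on the Lgr5- array, 3.16-fold higher with a scanner error of 0.25. Lrig1, a restraint on EGF receptors that marks stem cells, was at 1.04 and -0.95. Znrf3, a ubiquitin ligase that removes Wnt receptors, was at -0.59 and -2.27, with 1 of its 3 probes above background on both arrays. Agr3, a protein disulfide isomerase relative, was seen on the Lgr5+ array only and was at least 3.71-fold higher. The 3 lower genes were Fstl1, a secreted glycoprotein that fibroblasts make in quantity, at 0.52 and 2.78, the RNA-binding protein gene Msi1 at 1.29 and 2.62, and the water channel gene Aqp4 at 1.14 and 2.21. Probes of Msi1 disagreed, with differences of -1.34 and 1.12. For Aqp4 the mean over its probes was 0.43 in place of -1.07.

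Reserve stem cell genes gave 3 higher and 0 lower of 9 with a median of 0.54, and Lrig1 is on that list too. Hopx, a homeodomain protein, was at 0.52 and -0.85, and Mex3a, an RNA-binding protein, was at least 2.63-fold higher. Targets and regulators of Wnt signalling did not lean one way: of 40 listed genes 36 had a difference, 7 higher and 3 lower, with 16 above 0 and 20 below and a median of -0.13 that turned to 0.03 after scaling by the array median. Lgr5, the gene of the sort, is on this list too and is among the 7. Nkd1, a feedback inhibitor of the pathway, was at least 4.14-fold higher, and Mmp7, a protease that Paneth cells also make, was at 3.37 and 1.89. Lower were Tdgf1, a co-receptor for Nodal, at -1.10 and 1.54, Dkk3, a member of the Dickkopf family, at -2.78 and -1.22, and Tiam1, an exchange factor for Rac, at 0.78 and 2.0. Probes of Tiam1 (-1.22 and 1.33) and of Tdgf1 (-2.63 to 0.15) did not go one way.

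Notch genes gave 5 higher and 2 lower of 23, with a median of 0.20. Hes6, a basic helix-loop-helix protein of the Hes family, was at 0.89 and -0.94, and Nrarp, a target and inhibitor of Notch, at 0.89 and -0.92. The ligand gene Jag1 was at -0.75 and -2.24. Ncstn, a subunit of gamma-secretase, differed by 1.08 at one probe and by -0.07 at another. The receptor gene Notch3, at 1.17 and 2.46, was lower, as was Dll4.

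**Figure D2:**
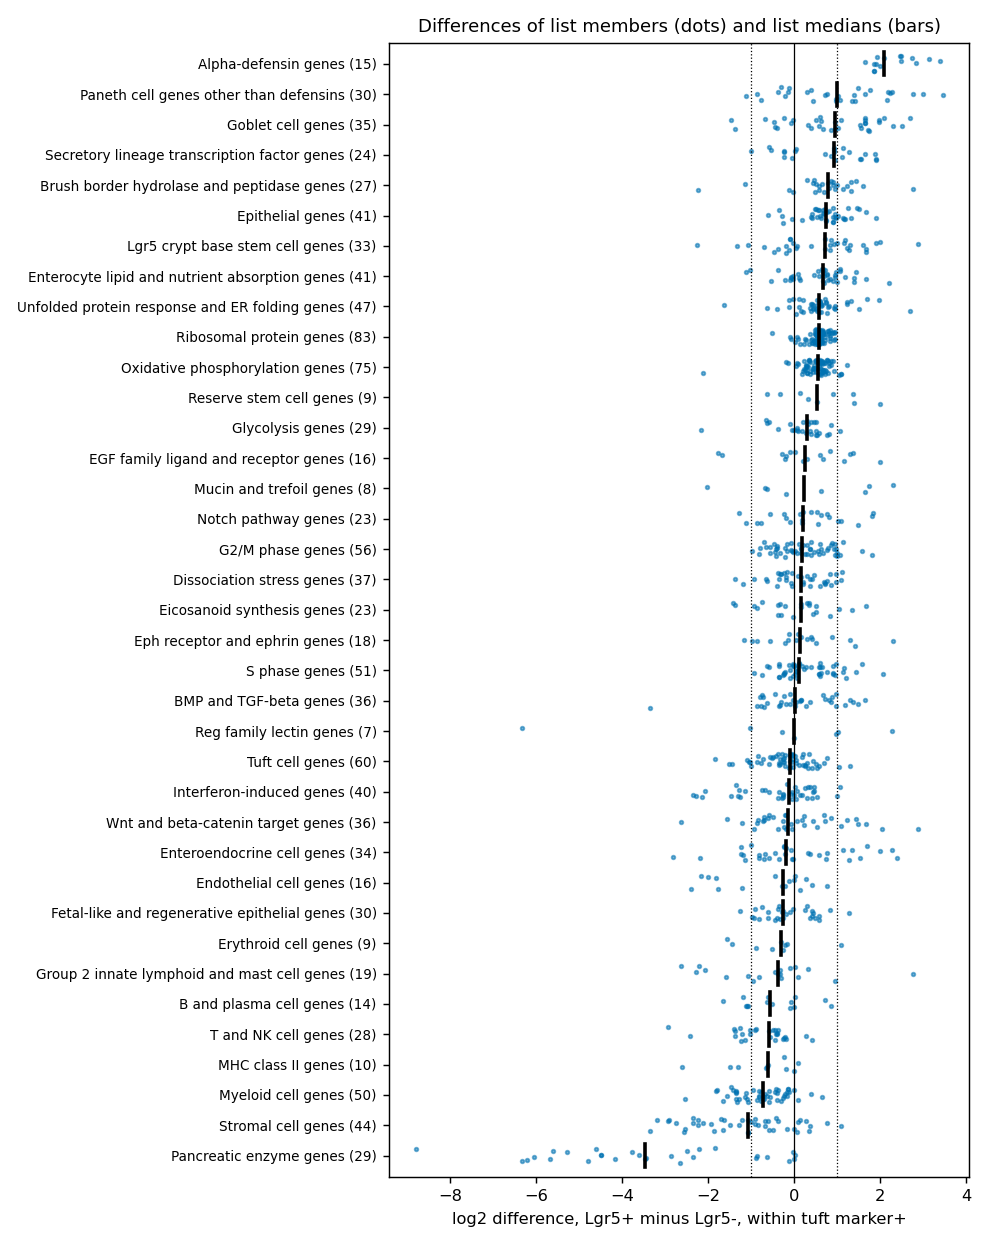
Each row is a gene list with the number of its genes that had a difference; dots are genes, the black bar is the list's median, and the x axis is the log2 difference of Lgr5+ minus Lgr5- tuft marker+ cells with dotted lines at 2-fold. Alpha-defensin genes have the highest list median at 2.09 and pancreatic enzyme genes the lowest at -3.46.

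Transcription factor and goblet cell genes of the secretory lineages were more often at least 2-fold higher than lower, while enteroendocrine genes went both ways. Among 24 transcription factor genes of secretory cells 9 were at least 2-fold higher and 1 lower, with a median of 0.92. Spdef, which drives goblet and Paneth cell maturation, was at -0.33 on the Lgr5+ array and -1.97 on the Lgr5- array. Foxa3, a forkhead factor of goblet cells, was at -0.25 and -2.12, and St18, a zinc finger factor, at -0.65 and -2.56. Bhlha15, known as Mist1, which builds the secretory apparatus, was at least 3.73-fold higher. Isl1, an enteroendocrine factor, was at least 2.01-fold lower.

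Of 40 listed goblet cell genes 35 had a difference, 16 higher and 2 lower, with a median of 0.94. Ern2, the endoplasmic reticulum stress sensor of mucus-secreting cells, was at 1.99 and -0.69, a 6.42-fold difference. Muc2, the main gel-forming mucin of the intestine, was at 3.0 and 1.34, Muc4, a membrane mucin, at 0.90 and -1.39, and Tff3, the trefoil peptide of goblet cells, at 2.24 and 0.50. Fam174b was at -0.17 and -2.68 and the resistin-like peptide gene Retnlb at 1.32 and -0.78. Lower were Ramp1, a partner of calcitonin-type receptors, at -2.30 and -0.84, and Lman1l, a lectin of the secretory pathway, at 1.99 and 3.36. Mucin and trefoil genes as a separate list gave 3 higher and 1 lower of 8, with a median of 0.23. The lower gene was Tff2, a trefoil peptide, which was at least 4.07-fold lower.

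Folding genes of the endoplasmic reticulum had a median of 0.58, with 7 higher and 1 lower of 47. Txndc5, a disulfide isomerase, was at -0.75 and -2.71, and Eif2ak3, the stress kinase PERK, at -1.40 and -2.90. Pdia5, another disulfide isomerase, was not on the list and was at -0.32 and -3.19. Chac1, a glutathione-degrading enzyme induced by stress, was at least 3.23-fold higher. Ero1b, an oxidase for protein disulfides that is abundant in pancreas, was the lower gene at -2.65 and -1.01.

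Of 43 listed enteroendocrine genes 34 had a difference, 8 higher and 7 lower, with a median of -0.20 that became 0.01 after scaling by the array median. Higher were Chgb, a granin of secretory granules, at 3.93 and 1.95, Tac1, the precursor of substance P, at -0.14 and -1.83, and Pcsk1, the prohormone convertase, by at least 5.24-fold. Lower were the hormone genes Nts (neurotensin) by at least 7.01-fold, Cck (cholecystokinin) by at least 4.55-fold, and Gip at -2.37 and -1.13, along with Fev, a transcription factor of serotonin cells, at 0.42 and 1.65. Thus the hormone genes Nts, Cck and Gip were lower, while the peptide precursor gene Tac1 was higher along with Chgb and Pcsk1. These are among the members farthest from 0 in each direction, so they do not describe hormone genes as a class.

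Tuft cell genes differed little as a list, as far as the sort for IL17RB on both sides allows a comparison. Of 65 listed genes 60 had a difference, 2 higher and 7 lower, with a median of -0.11 that became 0.11 after scaling by the array median. Below 0 were 39 of the 60. On the Lgr5+ and Lgr5- tuft marker- arrays 54 and 47 of the 62 genes with a probe were above background. Ifnlr1, a subunit of the interferon lambda receptor, was at -0.26 and -1.55. Plcb2, the phospholipase of taste signalling, was at 3.71 and 2.66, but its other probe above background on both arrays differed by -1.22. Lower were Gng13, a G protein subunit of taste signalling, by at least 3.56-fold, Ptprc, which tuft cells share with leukocytes as CD45, at 1.82 and 3.33, Itprid1 by at least 2.70-fold, and Nradd, a death domain protein, at -3.08 and -1.98.

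Most enterocyte genes differed by less than 2-fold, and those past 2-fold were more often higher than lower in Lgr5+ tuft marker+ cells. Of 41 genes for uptake of lipids and nutrients 8 were at least 2-fold higher and 2 lower, with a median of 0.68, and of 27 brush border hydrolase and peptidase genes 8 were higher and 2 lower, with a median of 0.78. Slc2a5, the fructose transporter, was at 0.10 and -1.57, Npc1l1, which takes up cholesterol, at -0.40 and -1.83, and Slc6a19, a carrier of neutral amino acids, at -1.40 and -2.80. Slc3a1, a subunit of the cystine transporter, was at least 4.63-fold higher. Among brush border genes Mme, the peptidase neprilysin, was at -0.38 and -3.13, and Alpi, the alkaline phosphatase of enterocytes, at 4.60 and 3.27. Ush1c and Eps8, which organise microvilli, were at 2.0 and 0.57 and at 1.25 and -0.36. Lower were Scarb1, a lipoprotein receptor, at -0.29 and 0.82, Plb1, a phospholipase, at 0.14 and 1.18, the phosphatase gene Alpl at -2.90 and -0.66, and Mep1a, a meprin subunit, at -0.48 and 0.66.

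General epithelial genes had a median of 0.73, with 10 of 41 at least 2-fold higher and 0 lower. All 41 were above background on each of the 4 arrays. Ovol1, a zinc finger factor of epithelia, was at 1.34 and -0.33, Rab25, a trafficking GTPase of epithelia, at 1.71 and 0.21, and Esrp2, a splicing regulator of epithelia, at -0.97 and -2.44.

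Ribosomal protein genes shifted slightly and evenly, with a median of 0.57 over 83 genes, 80 of them above 0 and none past 2-fold in either direction. The gene farthest up was Rpl12 at 5.46 and 4.51, and the gene farthest down was Rpl18, whose 2 probes differed by -0.53 and 0.62. Oxidative phosphorylation genes had a median of 0.56, with 4 higher and 1 lower of 75 (Ndufa11, Uqcrc1, Ndufa10 and Uqcrc2 up, and Ndufab1, seen on the Lgr5- array only, down). Glycolysis genes had a median of 0.29, with Ldhb, a lactate dehydrogenase subunit, at -1.79 and 0.38. The S phase list had a median of 0.11, with 6 higher and 0 lower of 51, and the helicase subunit gene Mcm2 was at -0.97 and -3.02. Pole2, a polymerase subunit, was at -0.85 and -2.42 and Gins4 at 0.29 and -1.15. G2/M genes had a median of 0.18, 4 higher and 0 lower of 56, with Cdca3 at 0.51 and -1.31 and the kinase gene Nek2 at -0.59 and -2.16. The S phase median turned to -0.06 in the authors' scaled values.

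Pancreatic enzyme genes had the lowest median of the 37 lists. All 29 of 31 listed genes with a named probe had a difference, 22 were at least 2-fold lower, 0 were higher, and the median was -3.46. On the Lgr5- array all 29 were above background, on the Lgr5+ array 16. Amy2a5, a pancreatic amylase, was at -2.72 on the Lgr5+ array and 6.08 on the Lgr5- array, or 445-fold lower, and its second probe differed by -5.12. The chymotrypsinogen gene Ctrb1 was at 0.55 and 5.04 and the salivary-type amylase gene Amy1 at 0.79 and 5.29. Cpa1, a carboxypeptidase, was at -2.75 and 1.85, Cela2a, an elastase, at -1.66 and 1.95, and the trypsinogen gene Try5 at -3.06 and 2.61. Seen on the Lgr5- array only were Reg2 (at least 80.6-fold lower in Lgr5+ cells), Prss2 (74.2-fold), Cpb1 (66.1-fold) and Pnlip, pancreatic lipase (49.0-fold). Trypsinogen and amylase genes are near copies of each other, so single members are uncertain. Members with a value under 2-fold, named after their values were seen, were Ctrl, Pnliprp2, Prss1, Clps, Zg16, Reg1 and Spink1. Of these, Zg16 (3.62 and 3.65), Reg1 (2.90 and 2.90) and Spink1 (5.60 and 5.58) are also made in the intestine. Pnliprp2 was not above background on the Lgr5+ array, so its value is a limit and its difference could be larger. The transcription factor gene Rbpjl, part of the acinar programme and chosen after its values were seen, was at -1.25 and 0.42. The secretory factor gene Bhlha15, given above, went the other way and was at least 3.73-fold higher. Ptf1a, which defines acinar cells, was not well above background on either array. Of the Reg lectins outside this list Reg3b was at 7.55 and 6.53 and Reg3d at -2.43 and -1.40.

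On the tuft marker- arrays the same enzymes went the other way: Amy2a5 was at 5.02 in Lgr5+ and 3.05 in Lgr5- cells. The Lgr5+ tuft marker+ array was the only one of the 4 with fewer than 28 of the 29 genes above background. The summed level of the list, as log2, was 6.47 on the Lgr5+ tuft marker+ array and 8.15 on the Lgr5- tuft marker+ array. It was 7.82 on the Lgr5+ tuft marker- array and 6.73 on the Lgr5- tuft marker- array. These sums include Spink1, Zg16 and Reg1, which are also made in the intestine. The median level of the list was -3.06, 1.87, 1.14 and -0.49 in the same order. Whether enzyme RNA came from the sorted cells or from elsewhere was not tested.

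The lists for cell types that the EpCAM gate should leave out each held more genes at least 2-fold lower than higher in Lgr5+ tuft marker+ cells. Genes as a whole did so too, with 11.5% lower and 9.04% higher. The lower share of these lists ran from 22.2% for the 9 erythroid genes, of which 11.1% were higher, to 52.3% for stromal genes. Stromal genes had a median of -1.07, with 1 higher and 23 lower of 44, and 33 of 47 were above background on the Lgr5+ array against 44 on the Lgr5- array (27 and 31 on the tuft marker- arrays). Eln, the elastic fibre protein, was at -2.25 and 0.95, Grem1, a BMP antagonist of fibroblasts, was at least 10.2-fold lower, and Col4a1 and Lum, matrix genes, were at least 7.64-fold and 7.54-fold lower. Col3a1, a collagen named after its values were seen, was at 0.57 and 3.33. The 1 higher gene was Twist1, a mesenchymal transcription factor, at -2.11 and -3.20, low on both arrays. Endothelial genes had a median of -0.25, with 0 higher and 6 lower of 16, and the median was 0.030 without the detection filter. Pecam1, the adhesion molecule CD31, was at -2.54 and -0.38. Vwf was at least 4-fold lower and Ecscr was at -3.06 and -0.67. In a bulk sample, fewer cells of a type and less of the RNA in each such cell cannot be told apart, and the part these cell types play in the other differences was not tested.

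Myeloid genes had a median of -0.73, with 0 higher and 17 lower of 50. Above background were 45 of 50 on the Lgr5+ array and 50 on the Lgr5- array, against 33 and 41 on the tuft marker- arrays, so that more of these genes were detected on either tuft marker+ array. The log2 of the summed level was 10.33, 10.66, 9.37 and 9.61 in that order. S100a9, a neutrophil protein, was at -0.81 and 1.72, Marco, a scavenger receptor, at 0.12 and 1.94, Msr1, another, at -0.87 and 0.92, and the macrophage gene Cd163 at 0.69 and 2.34. MHC class II genes gave 3 lower of 10, with a median of -0.62, among them H2-Aa at 2.63 and 3.93. T and NK cell genes had a median of -0.58, with 0 higher and 11 lower of 28. Gzma, a granzyme of cytotoxic cells, was at -0.30 and 2.65, a 7.69-fold difference, and Gzmb at -2.78 and -0.37.

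B and plasma cell genes had a median of -0.56, with 0 higher and 5 lower of 14, among them Jchain at -0.73 and 0.45 and Pou2af1 at -1.41 and -0.29. For group 2 innate lymphoid cell and mast cell genes the median was -0.36, with 1 higher and 6 lower of 19. The higher one was Kit, given above, and Rora, at -1.95 and 0.68, and Hdc, the histamine enzyme, at -2.78 and -0.58, were lower. The receptor gene Il1rl1, chosen after its values were seen, was at 0.23 and 0.57. Erythroid genes gave 1 higher and 2 lower of 9 with a median of -0.32, and Ermap was at 3.89 and 5.45. Interferon-induced genes gave 1 higher and 10 lower of 40. Their median of -0.12 became 0.10 after scaling by the array median. Cxcl9, a chemokine, was at -0.49 and 1.85, and Ifit3 at -1.98 and 0.15.

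The lists in this paragraph had medians from -0.27 to 0.25, against -0.06 over all genes, of which 9.04% were at least 2-fold higher and 11.5% lower. Eph and ephrin genes gave 3 higher and 1 lower of 18 (median 0.13), with Epha7 at 0.06 and -2.25 at the probe used and a difference of -0.07 at another, Ephb4 at 1.72 and 0.32, and Efna1 at 1.60 and 0.30. EGF family genes gave 4 higher and 2 lower of 16 (median 0.25), with Errfi1, an inhibitor of EGF receptors, at 0.92 and -0.46 and the ligand gene Epgn at -2.58 and -0.81. BMP and TGF-beta genes gave 5 higher and 1 lower of 36 (median 0.03). Inhba, an activin subunit, was at 1.25 and -0.24, Bmp2 at 0.60 and -0.77, and the lower gene was Grem1. Eicosanoid genes gave 3 higher and 2 lower of 23 (median 0.15), with Mgst2, a leukotriene C4 synthase relative, at 1.55 and -0.13 and Tbxas1, the thromboxane synthase, at -1.44 and -0.06. Genes of fetal-like and regenerative epithelium gave 1 higher and 1 lower of 30 (median -0.27), with Sprr1a at 0.96 and -0.32 and Ly6a at 0.88 and 2.15. Genes induced when tissue is dissociated gave 2 higher and 2 lower of 37 (median 0.15), with Klf4 at 3.59 and 2.48 and Ier3 at -1.12 and 0.26. The medians for Eph, BMP, eicosanoid and dissociation genes changed sign in the authors' scaled values.

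Predicted genes and RIKEN clones aside, Retnla was the gene highest in Lgr5+ tuft marker+ cells among those above background on both arrays. Retnla, a resistin-like protein known from macrophages and fat, was at 2.01 and -1.91, a 15.2-fold difference. Next to the Paneth genes given above stood Ift122, a component of ciliary transport, at 1.08 and -2.17, Cfd, the complement protease factor D that fat cells secrete, at 1.60 and -1.64, Tmem171 at 0.33 and -2.79, the desaturase gene Scd1 at 1.52 and -1.59, Pck1, an enzyme of glucose synthesis, at 0.52 and -2.50, and Tox3, a nuclear HMG box protein, at 1.29 and -1.57. Tmem171 differed by 0.89 at its second probe, and Cfd by 3.12. The fat cell genes Adipoq and Plin1, and the lipid carrier gene Fabp4 and the carbonic anhydrase gene Car3, all chosen after their values were seen, did not go together. Adipoq was at -2.69 and -2.53 and Plin1 at -2.49 and -2.59, while Fabp4 was at 1.90 and 0.16 and Car3 at -0.43 and -2.40. Agbl1, a carboxypeptidase acting on tubulin, was at least 18.2-fold higher and was seen on the Lgr5+ tuft marker+ array alone of the 4. Mansc4, Elp4 and Foxn4 were likewise above background on that array alone, at least 8.74-fold, 7.95-fold and 7.20-fold higher.

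Beside pancreatic enzymes, the genes lowest in Lgr5+ tuft marker+ cells included Chl1, a neural adhesion molecule, at -3.27 and 0.30, Cyp1b1, a cytochrome P450, at -2.17 and 1.19, Rab11fip4 at -1.55 and 1.70, and Dppa5a at -0.80 and 2.21. Rnase6 was at -2.13 and 0.82 and Snx22 at -2.36 and 0.55. Ptx3, a long pentraxin made by stromal and myeloid cells, was seen on the Lgr5- array only and was at least 32.2-fold lower.

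**Figure D3:**
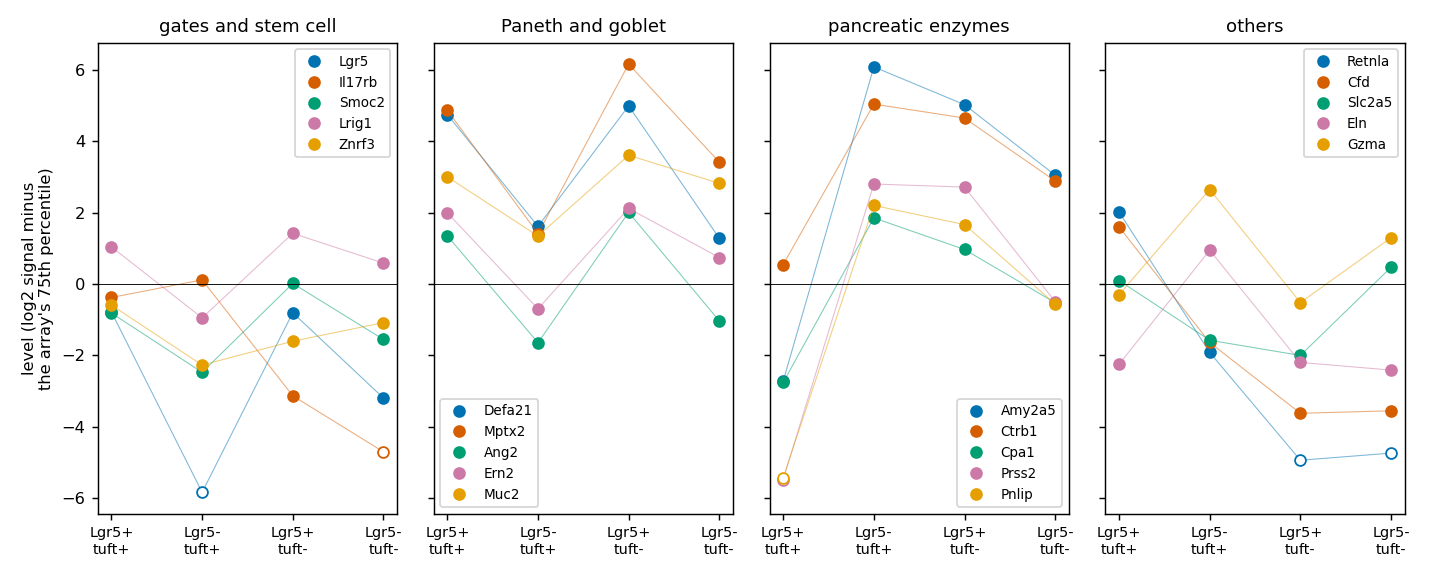
Levels of 20 genes, as log2 signal minus the array's 75th percentile, on the 4 arrays, 1 array a group; open circles are not well above background, and the thin lines only join the points of a gene. Defa21, Mptx2 and Ang2 are higher on both Lgr5+ arrays, and the pancreatic enzymes are lowest on the Lgr5+ tuft marker+ array.

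The Lgr5+ and Lgr5- tuft marker- arrays, which share no array with the comparison above, gave 1129 genes (6.49%) at least 2-fold higher and 920 (5.29%) lower of 17403. Of 16306 genes with a difference in both pairs, 120 were higher in both, which is 8.04% of the genes higher in tuft marker+ cells and 11.6% of those higher in tuft marker- cells. Lower in both were 96, or 5.28% and 11.8% of the lower genes. Higher in tuft marker+ and lower in tuft marker- cells were 107, or 7.17% and 13.1%. Lower in the first and higher in the second were 298, or 16.4% and 28.8%. For comparison, 6.49% of all genes with a difference were higher in tuft marker- cells and 5.29% lower. In tuft marker+ cells 9.04% were higher and 11.5% lower. The shares lower in both thus lay near those over all genes. The shares higher in both, and those higher in the first and lower in the second, lay somewhat above them. The shares lower in the first and higher in the second lay farthest above them. More genes stood on opposite sides than on the same side mainly through these 298, which include 21 of the 29 pancreatic enzyme genes.

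Alpha-defensins were on the same side, with 14 of 15 higher in both pairs and medians of 2.09 and 2.51. Defa21 differed by 3.13 and 3.71, Mptx1 by 3.0 and 2.99, and Ang2 by 2.99 and 3.04. Smoc2 differed by 1.66 and 1.57, and Lgr5 by at least 2.88 and by 2.39. Goblet medians were 0.94 and 0.79 and stem cell medians 0.73 and 0.29. Pancreatic enzymes had medians of -3.46 and 1.77, with opposite signs in 29 of 29 genes. Enterocyte absorption genes had medians of 0.68 and -0.69, with opposite signs in 34 of 41, and brush border genes 0.78 and -0.67, with opposite signs in 22 of 26. Slc2a5, for example, differed by 1.67 and -2.47, and Alpi by 1.33 and -1.18. With 1 array a group these differences between pairs were not tested.

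**Figure D4:**
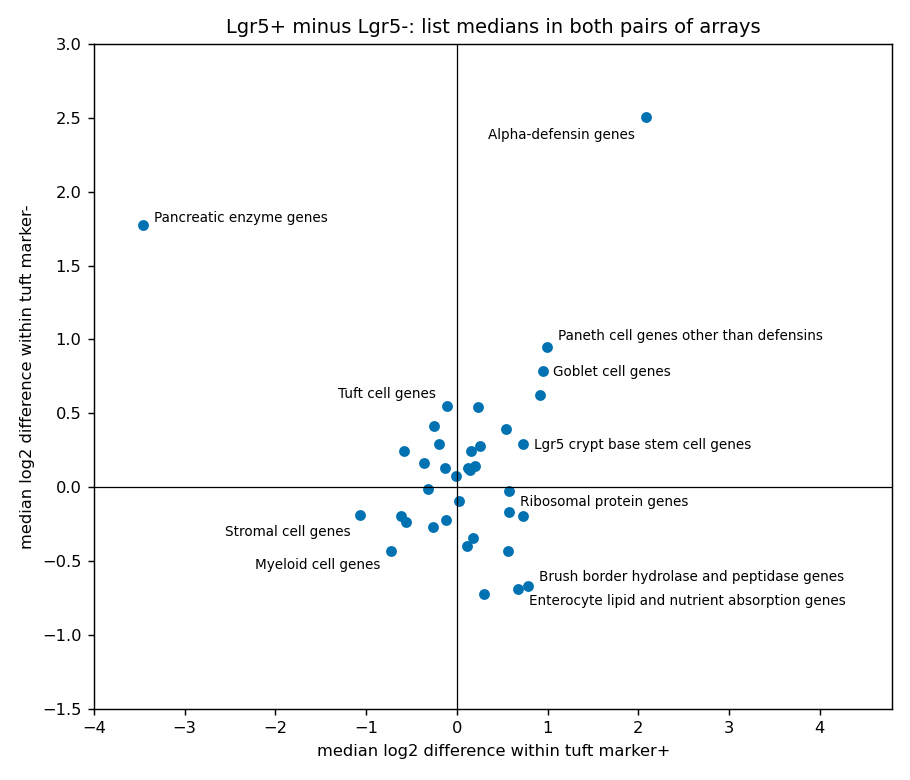
Each dot is a gene list, with its median log2 difference of Lgr5+ minus Lgr5- cells within tuft marker+ cells across and within tuft marker- cells up. Alpha-defensins (2.09 and 2.51) are at the upper right, pancreatic enzymes (-3.46 and 1.77) at the upper left, and enterocyte and brush border genes at the lower right.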

How the data were processed

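RNA of 4 sorted cell populations was measured on 4 one-colour Agilent arrays, 1 per population, and the 2 arrays of tuft marker+ cells were compared. Per the file headers, the deposited intensity of each spot was background-subtracted within the array by Agilent Feature Extraction 12.0.3.1, with no scaling between arrays. Per the submitters' processing notes the software version was 11.5.1.1, and the conflict was not resolved. Flags of 0 or 1, also deposited, mark spots that are well above background, that are positive and significant, that are saturated and that are outliers. The authors also deposited a table of processed intensity values, which from the values is the scanner's intensity times 1 constant per array (10.9 and 11.9 for the tuft marker+ arrays, in the order Lgr5+ and Lgr5-). It is linear and not centred by gene, its column medians were 279, 365, 286 and 253 for Lgr5+ and Lgr5- tuft marker+ and Lgr5+ and Lgr5- tuft marker- cells, and the reason for the constants is not stated.

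From these, control and outlier spots were left out, log2 was taken and the array's 75th percentile subtracted. Probe copies were averaged, and 32994 of 56605 probes were named by accession through a RefSeq table of GRCm38.p6. The other 23611 were not used for genes. The grid was annotated on mm9, so gene positions are not given. Of several probes of a gene, the one with the highest mean level was used. Among members, 239 had no difference: 179 had a limit that gave no fold and 60 had a chosen probe that was dim on both arrays. Python 3.11.15, pandas 2.3.3 and, for normexp with an offset of 50 on the median and background signals, limma 3.58.1 were used. The files as used here held no mean signal column, so the median signal took its place.

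Members, 37 gene lists and named genes were chosen with earlier results of these data known. Named were the gate genes, the up to 4 list members farthest from 0 in each direction past 2-fold, the 15 highest and 15 lowest genes on both arrays and the 10 highest and 10 lowest limits. The 15 highest and 15 lowest had to lie more than 2 scanner errors from 0. In these rankings predicted genes and RIKEN clones were passed over, though they were counted. Any other gene is said to be chosen after its values were seen. An entry of the Paneth list that is a synonym of Defa38 was left out of it. The counting was checked on simulated data. Alternatives were other scalings, background correction, detection rules, floor and probe choice. Some items are not reported here.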

Additional observations from a re-analysis of the deposited data

Results flagged for a closer look

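For 7 gene lists the medians of Lgr5+ minus Lgr5- cells had opposite signs in the pair of tuft marker+ arrays and in the pair of tuft marker- arrays, and both medians were farther from 0 than the median scanner error of 0.21. With 1 array a group, these differences between pairs were not tested. The list medians were 0.68 and -0.69 for enterocyte absorption genes, 0.78 and -0.67 for brush border genes, and -3.46 and 1.77 for pancreatic enzyme genes. They were -0.25 and 0.41 for endothelial genes and -0.58 and 0.25 for T and NK cell genes. Oxidative phosphorylation genes had medians of 0.56 and -0.43, and glycolysis genes 0.29 and -0.73. With other scalings the tuft marker+ median came as near to 0 as -0.03 for endothelial and 0.13 for glycolysis genes, both within that error. Members with opposite signs numbered 71 of 75 for oxidative phosphorylation, 25 of 29 for glycolysis, 18 of 24 for T and NK cells and 7 of 12 for endothelial cells. Other lists, with 1 median nearer to 0, also had many such members, among them 78 of 83 ribosomal protein genes and 33 of 41 epithelial genes.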

How the results depend on the processing

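No paired analysis was possible because each group had 1 array, and for the same reason no replicate could be left out. Scaling by the array median gave 2594 higher and 1275 lower genes, normexp 381 and 387, and the positive and significant mark 3741 lower genes. Array median scaling also moved list medians to 1.0 for stem cell, 2.31 for alpha-defensin, 1.22 for other Paneth, 1.17 for goblet, 0.11 for tuft, 0.90 for enterocyte, 1.0 for brush border, -3.24 for pancreatic, 0.95 for epithelial, -0.50 for myeloid, -0.85 for stromal and 0.80 for ribosomal protein genes. Normexp gave 0.50 for stem cell, 0.65 for goblet, -1.65 for pancreatic and -0.48 for stromal genes. Without a detection filter the medians were 0.40 for stem cell and 0.67 for goblet genes, and 0.030 for endothelial genes, a change of sign. The positive and significant mark gave 0.67 for goblet, -3.77 for pancreatic and -0.18 for mucin and trefoil genes, the last with its sign turned. The mean of all probes gave 0.51 for stem cell and 0.12 for Wnt genes. It turned the sign of Aqp4 to 0.43, Tiam1 to 0.054, Xaf1 to 0.53 and Rpl18 to 0.049. The authors' scaled values gave 0.57 for brush border genes. For pancreatic genes, those above background on both arrays had a median of -2.28, and without a floor it was -3.77. Apart from the constructions themselves, the cause of these moves was not tested. Of 370 list medians recomputed, 305 moved by less than the median scanner error, and of 1949 values of named genes 1575 moved by less than their own. Signal near background limits the 477 and 2134 genes seen on the Lgr5+ or the Lgr5- array only, whose values are limits.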
